A study of Zea mays with 4 samples.

Results

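Probe sets were taken whose single annotated gene is LOC541645 (chs1) or carries c2, whp1, chi1, fht1, a1, a2, bz1 or bz2 as a symbol or synonym. This gave 3 genes of the 1108 that the annotation of the Affymetrix maize array names, each with 1 of its 17734 probe sets: chs1, a2 and fht1. The other 6 of the 9 names match no annotated probe set, so c2, whp1, chi1, a1, bz1 and bz2 are not analysed here. No second annotated probe set is there to compare any of the 3 with. The annotation does not list 16281 of the probe sets, so any further ones for these genes would be unnamed.

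Flavonoids are plant phenolics that include anthocyanin pigments, flavones and the phlobaphenes of maize pericarp. Chalcone synthase joins a coumaroyl unit from the general phenylpropanoid pathway with malonyl-CoA to make chalcone, and so draws on the same precursor as lignin. Chalcone isomerase (chi1), flavanone 3-hydroxylase (fht1), dihydroflavonol reductase (a1), anthocyanidin synthase (a2), a glucosyltransferase (bz1) and a glutathione S-transferase (bz2) then act in that order in maize. The chalcone synthases of maize kernels and pollen are known by the names c2 and whp1.

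The inbred line F98902, labelled as of poor digestibility, was compared with Cm484, labelled as of good digestibility, with 2 arrays of total RNA from each. All 4 samples came from untreated greenhouse plants with 14 h of light at 22 °C and nights at 20 °C, taken at flowering, 24 h before ovulation. The labels name stem in the growth conditions and root in the RNA extraction, and they do not say whether the samples of a line are separate plants, so p-values cover only the spread between these samples. Each kind of digestibility is represented by 1 line.

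The annotated names fit the flavonoid label only in part. The reference table lists LOC541645 under both chs1 and minE, and minE is the name of a gene for placing the plastid division site in other plants. The same table holds c2 (LOC100274415) and whp1 (LOC100282642) as separate genes on other chromosomes, so LOC541645 is neither of the classical chalcone synthase genes. It is called chs1/minE below. The name a2 belongs to 2 entries on different chromosomes, LOC606406, which the probe set is annotated to, and LOC100127010, which matches no annotated probe set. Which of them encodes the anthocyanidin synthase is not given in the tables used here. Of the 3 probe sets, only that of fht1 (LOC542712, also listed as f3h) carries names that all stand for a flavonoid enzyme.

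Values are GCRMA summaries on the log2 scale, so 1 unit is a change by a factor of 2 within a probe set. A probe set was kept for testing where it reached 5 on at least 2 of the 4 arrays, the value used here as the limit of detection. Between 54.8% and 55.2% of the probe sets reached it on each array. A probe set was called where limma's adjusted p, taken over all 10131 probe sets kept, was under 0.05. Of the 3 probe sets, those of chs1/minE and a2 were kept and that of fht1 was not. The array controls set the F98902 samples apart from each other. Over 5 control probe sets at the 5′ end of housekeeping transcripts, F98902 replicate 2 had a median -0.83 from the mean of the other arrays, and F98902 replicate 1 a median 0.86 above it. At the 3′ end of such transcripts the 4 arrays lay between -0.13 and 0.12. F98902 replicate 2 is also the sample with the least RNA in the labels, 120.7 ng, where F98902 replicate 1 has 312.4 ng and the Cm484 samples have 416.8 and 342.3 ng.

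The chs1/minE probe set was clearly higher in F98902. It read 9.18 and 9.15 in F98902 replicates 1 and 2, and 7.31 and 7.51 in Cm484 replicates 1 and 2. All 4 arrays were above detection, and the lowest F98902 value lay 1.64 above the highest Cm484 value. The F98902 replicates differed by 0.03 and the Cm484 replicates by 0.20, whereas the median absolute replicate difference over the probe sets kept was 0.21 in F98902 and 0.19 in Cm484. The means were 9.16 ± 0.02 in F98902 and 7.41 ± 0.14 in Cm484 (SD, n = 2 each).

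The log2 difference of chs1/minE, F98902 minus Cm484, was 1.75 ± 0.16 (SE), a 3.37-fold higher level in F98902 with a 95% interval of 2.53-fold to 4.47-fold (limma, adjusted p = 0.00123). Many probe sets moved as far: 6.73% of those kept were higher in F98902 by at least this much, and 12.5% differed by at least this much in either direction. Over all probe sets kept, 34.9% were called, 17.7% as higher in F98902 and 17.1% as higher in Cm484, and the median absolute difference was 0.44. The exact two-sided permutation test over the 4 arrays gave p = 0.333 for chs1/minE, the smallest that 2 against 2 samples allow. In these whole-tissue samples, fewer cells of a type and less RNA per cell cannot be told apart.

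**Figure D1:**
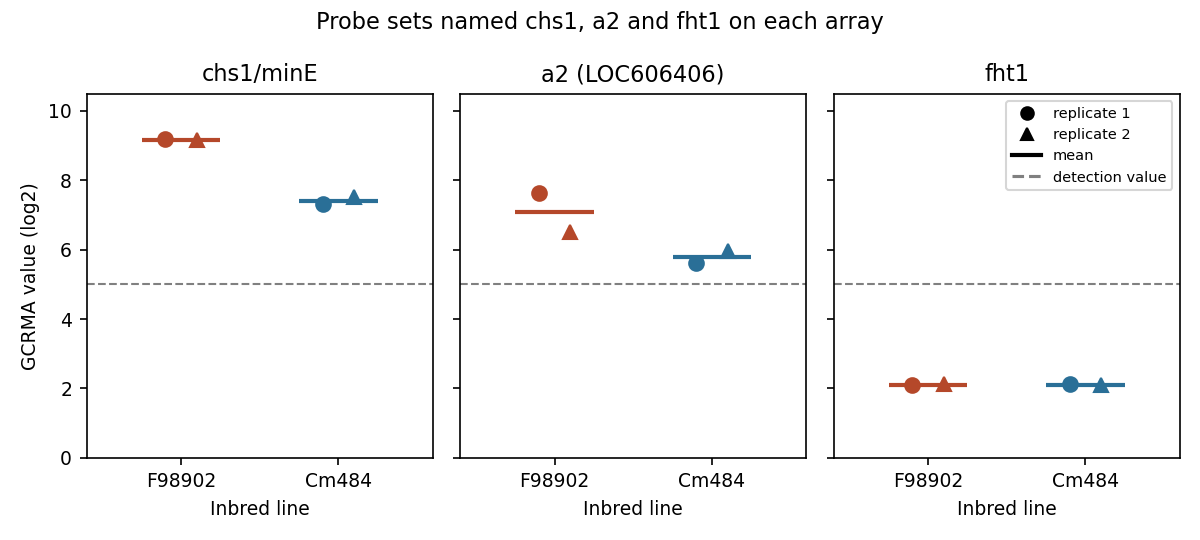
Values of the probe sets named chs1, a2 and fht1 (GCRMA, log2) on each of the 4 arrays, with F98902 on the left of each panel and Cm484 on the right; circles are replicate 1, triangles replicate 2, bars the mean of the line and the dashed line the detection value of 5. For chs1/minE the lines stand apart by 1.64 at their closest, for a2 the F98902 replicates lie at 7.64 and 6.50, and fht1 lies near 2.1 on every array.

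The probe set annotated a2 (LOC606406) was also detected on every array, but its line difference did not pass the test. It read 7.64 and 6.50 in F98902 replicates 1 and 2, and 5.61 and 5.95 in Cm484 replicates 1 and 2. The groups did not overlap, with 0.55 between the lower F98902 value and the higher Cm484 value. Groups that do not overlap, by a gap of any size, are common here: 34.9% of the probe sets kept had both F98902 values above both Cm484 values. The means were 7.07 ± 0.80 in F98902 and 5.78 ± 0.24 in Cm484 (SD, n = 2 each).

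For a2 the log2 difference was 1.29 ± 0.40 (SE), or 2.45-fold with a 95% interval of 1.22-fold to 4.90-fold, and limma's adjusted p was 0.0569. The unadjusted interval lies above no change, while the p adjusted over all probe sets misses the threshold. The F98902 replicates differed by 1.14, and 2.08% of the probe sets kept had an F98902 replicate difference at least that large. The higher of them, replicate 1, is also the array with the higher signal at the 5′ end of housekeeping transcripts. The part of that in the a2 values was not tested. Without F98902 replicate 2 the difference was 1.86 ± 0.24 (SE) and was called (adjusted p = 0.0109), and without F98902 replicate 1 it was 0.72 ± 0.24 (SE) and was not (adjusted p = 0.099). The size of the a2 difference thus rests on which F98902 array is used. It was also called, narrowly, when probe sets with names ending in _s_at, _x_at or _a_at were left out (adjusted p = 0.0487). These are termed probe sets of shared sequence here. The exact permutation test of a2 gave the same floor, p = 0.333.

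The fht1 probe set (LOC542712), for flavanone 3-hydroxylase, gave no signal above background in either line. It read 2.10 and 2.12 in F98902 replicates 1 and 2, and 2.13 and 2.09 in Cm484 replicates 1 and 2. These values overlap between the lines and span less than 0.05. They sit among the 7141 probe sets, 40.5% of those other than controls, that were under 5 on all 4 arrays, whose medians were 2.22 and 2.26 on the F98902 arrays and 2.27 and 2.22 on the Cm484 arrays. Both fht1 and those medians were highest on Cm484 replicate 1, followed by F98902 replicate 2. Neither a fold nor a test is given for fht1, because both lines have only an upper bound. A line difference in fht1 was therefore not detectable on these arrays.

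**Figure D2:**
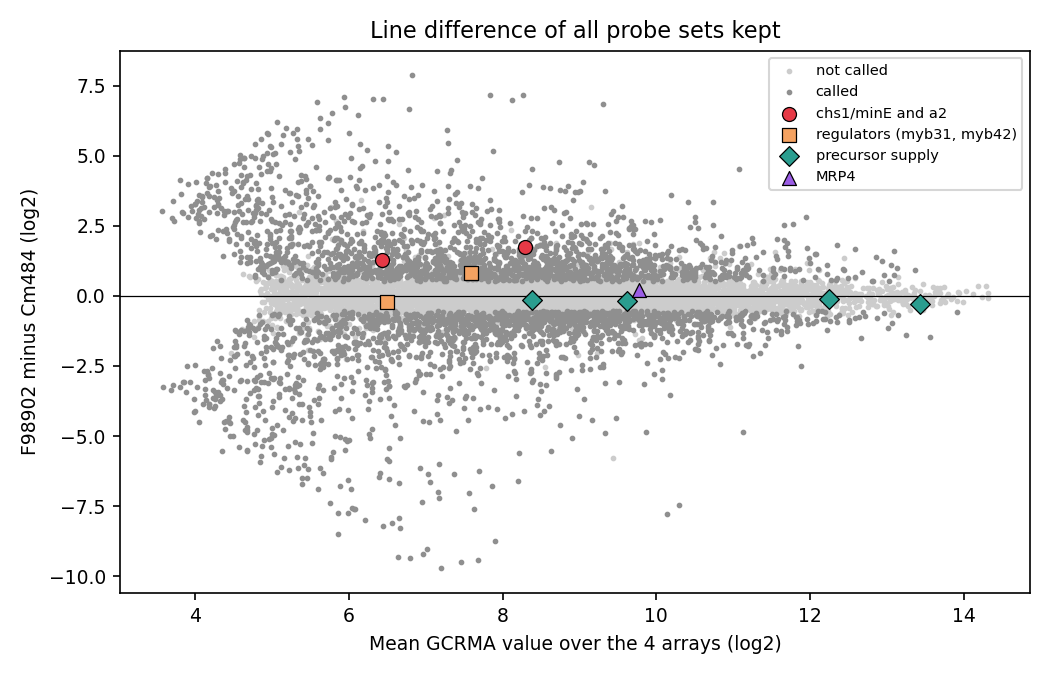
Log2 difference between the lines (vertical axis, F98902 minus Cm484) against the mean GCRMA value over the 4 arrays (horizontal axis, log2) for the 10131 probe sets kept, dark grey where called and light grey where not; coloured symbols mark the named pathway probe sets. chs1/minE at 1.75 and a2 at 1.29 lie inside the broad cloud of line differences, and the precursor genes lie close to 0.

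The regulators of the pathway were mostly below detection. The list for them matched 15 probe sets of 6 genes, of which 13 probe sets were under 5 on all 4 arrays, at values from 1.68 to 2.54. Those 13 include every probe set of the anthocyanin MYB activators c1 (2 probe sets) and pl1 (1), of the phlobaphene MYB activator p1 (5) and of the seed factor vp1 (4), which acts upstream of c1 in kernels. The bHLH partners r1 and b1 match no annotated probe set. So none of the named anthocyanin activators was detected in either line, and no difference between the lines could be measured for them.

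Of the 2 regulator probe sets kept, both are MYB factors known as repressors of phenylpropanoid genes. myb31 (LOC100037768) read 7.83 and 8.17 in F98902 replicates 1 and 2, and 7.01 and 7.33 in Cm484 replicates 1 and 2, with no overlap. Its difference of 0.83 ± 0.21 (SE) was called as higher in F98902 (limma, adjusted p = 0.0313). That call was lost without F98902 replicate 2, without either Cm484 array and with no filter. Of all probe sets kept, 34.9% had both F98902 values above both Cm484 values, as myb31 had, and 17.7% were called as higher in F98902. myb42 (LOC100101513) read 6.36 and 6.39 in F98902, against 6.37 and 6.84 in Cm484, where replicate 1 lies within 0.01 of the lower F98902 value. Its difference of -0.23 had a 95% interval of -0.76 to 0.30 and was not called (adjusted p = 0.454), and its second probe set was below detection.

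The 3 genes that the list for precursor supply matched, PAL1, 4CL and ACC1, were detected in both lines and not called. Other names searched, among them c4h (cinnamate 4-hydroxylase), pal2 and acc2, matched no annotated probe set, so the supply is covered only in part. Of all probe sets kept, 34.9% were called, so the absence of calls among 4 says little about these genes. All 4 probe sets of this list, for 3 genes, were kept, with a median difference of -0.17, against -0.02 over all probe sets kept. PAL1 (LOC542258), the phenylalanine ammonia-lyase at the entry of the phenylpropanoid pathway, read 13.37 and 13.19 in F98902, against 13.50 and 13.67 in Cm484. Its groups do not overlap, Cm484 being the higher, as also for 4CL and the ACC1 probe set ending in _x_at below. The share of all probe sets kept with such separation is given here only for the other direction, F98902 the higher, where it was 34.9%. The 95% interval of the PAL1 difference ran from -0.73 to 0.12 (adjusted p = 0.225). 4CL (LOC542166), whose enzyme makes the coumaroyl-CoA that chalcone synthase uses, read 12.22 and 12.17 in F98902, against 12.29 and 12.28 in Cm484. Its interval was -0.47 to 0.29 (adjusted p = 0.683).

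ACC1 (LOC542319) is an acetyl-CoA carboxylase gene, whose kind of enzyme makes malonyl-CoA. Whether its malonyl-CoA reaches chalcone synthase is not given by the annotation. ACC1 had 2 probe sets with like differences. The one whose name ends in _a_at differed by -0.15, with a 95% interval of -0.61 to 0.31 (adjusted p = 0.565). The one whose name ends in _x_at differed by -0.19, with an interval of -0.62 to 0.24 (adjusted p = 0.431). The ending _x_at marks probe sets that can also match related sequences. For these 4 probe sets the upper ends of the intervals are between 0.12 and 0.31, far under the lower end for chs1/minE, 1.34. These intervals are each for 1 probe set, and a difference between the differences was not tested.

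The list of other flavonoid enzymes and transporters matched a single further probe set. It is annotated MRP4 (LOC100125659, also lpa1), a transporter of the family that carries conjugates into the vacuole, known from the low phytic acid mutants of maize. MRP4 read 10.21 and 9.56 in F98902, against 9.76 and 9.57 in Cm484, and the groups overlap. The difference was 0.22, with a 95% interval of -0.43 to 0.88 (adjusted p = 0.553).

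**Figure D3:**
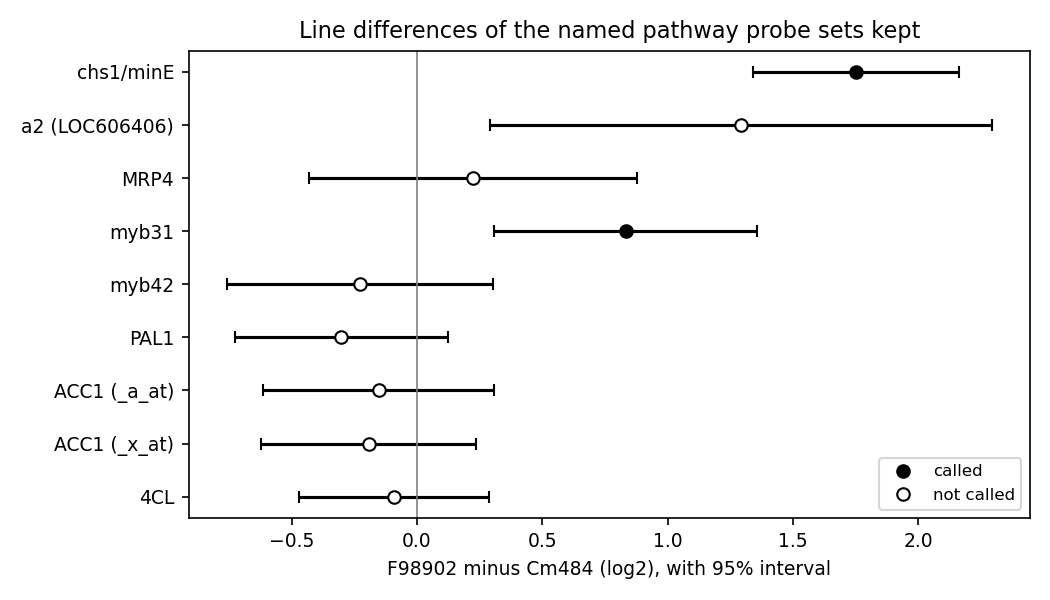
Log2 difference (F98902 minus Cm484, horizontal axis) of each named pathway probe set kept, with its 95% interval from limma, filled where called and open where not. The intervals of chs1/minE (1.34 to 2.16) and myb31 (0.31 to 1.36) lie above 0 and are called, that of a2 (0.29 to 2.29) lies above 0 and is not called after adjustment, and those of the other 6 cross 0.

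Most of the green tissue probe sets tested were higher in F98902, as chs1/minE was. The list matched 14 probe sets of 7 genes, of which 11 were kept. Of these, 8 were called as higher in F98902, 1 as higher in Cm484 and 2 were not called, where 17.7% and 17.1% of all probe sets kept were called in those directions. The median difference of the 11 was 1.32, against -0.02 over all probe sets kept. The 8 calls come from 4 genes. The C4 enzyme gene ppdk (LOC542759) and the light-harvesting gene lhcb6 (LOC542321) gave 3 each, at 3.22 to 3.91 and 1.19 to 1.34, and the photosystem I genes psad1 (LOC541791, 2.30 ± 0.18 SE) and psah1 (LOC541685, 0.97 ± 0.20 SE) 1 each. The light-harvesting gene lhcb5 (LOC542716) was called as higher in Cm484 (-0.94 ± 0.19 SE). A further ppdk probe set (0.01) and rbcs (LOC542212, 0.55), for the small subunit of Rubisco, were not called. The summed log2 values of the 14 were 129 and 127 on the F98902 arrays, against 107 and 109 on the Cm484 arrays. This sum takes in the 3 not kept and counts ppdk 5 times and lhcb6 4 times, so it is no level of green tissue as a whole. The part of the green tissue genes in the chs1/minE difference was not tested. The 1 root-preferential probe set matched, zrp4 (LOC542706), read 2.34 and 2.07 in F98902, below detection, against 8.83 and 8.59 in Cm484. It passed the filter through Cm484 alone, so its call as higher in Cm484 supports nothing. Of 14 seed probe sets 3 were kept. One of them, GLB1 (LOC541815), is a haemoglobin gene that shares its symbol with a seed globulin, and it was not called. Another, bt2 (LOC541902), read 5.54 and 6.10 in F98902, against 4.34 and 4.56 in Cm484, where it is below detection. It passed the filter through F98902 alone, so its call as higher there supports nothing. The third, zp27, was not called, and the 1 pollen probe set was below detection.

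The 5 probe sets closest to chs1/minE were sought among 779 others kept with 1 informatively named gene, by the Euclidean distance between their 4 values, each taken from the probe set's own mean. They were GLG1 (distance 0.10), a subunit of ADP-glucose pyrophosphorylase, FDX6 (0.12), a ferredoxin, lem1 (0.15), TPT (0.15), the triose phosphate translocator, and L-FNRII (0.16), a ferredoxin-NADP reductase. Their differences ran from 1.71 for FDX6 to 1.76 for lem1, beside 1.75 for chs1/minE. With 4 arrays in 2 lines, such likeness says little more than that the line difference and the replicate spread are of similar size.

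**Figure D4:**
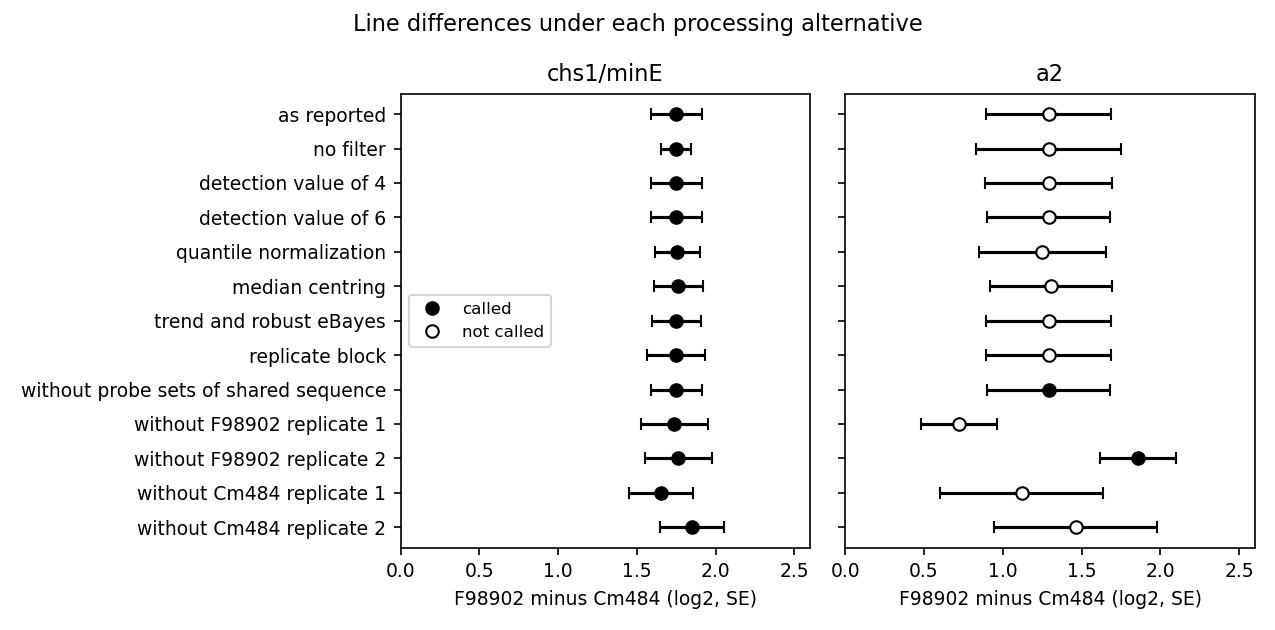
Log2 difference (F98902 minus Cm484, horizontal axis, bars are SE) of chs1/minE on the left and a2 on the right, as reported and under each of 12 processing alternatives, filled where called. chs1/minE stays between 1.65 and 1.85 and is called each time, while a2 ranges from 0.72 to 1.86 and is called under 2 of the alternatives.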

How the data were processed

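For 4 Affymetrix Maize Genome arrays the authors deposited a single table on the log2 scale, made with GCRMA in R 2.6.2 per the submitters' processing notes, and it was used unchanged. GCRMA corrects the background by probe sequence, normalizes by quantiles and summarises probes. The array definition and other settings were not stated.

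Genes were named by the platform's annotation and updated by gene identifier (1060 of 1108 found) in the RefSeq table of Zm-B73-REFERENCE-NAM-5.0. That annotation gave 1452 probe sets a single gene, 1 several genes, and did not list the other 16281. The 113 controls were left out. No sequences or coordinates were used.

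Probe sets at or above 5 on at least 2 arrays (10131) entered limma 3.58.1 (R 4.3.3, lmFit and eBayes). The model had line as its only term, F98902 minus Cm484, with 2 residual degrees of freedom and 3.26 prior ones. Tests were two-sided and Benjamini-Hochberg adjusted. The steps were tested on simulated data. Members and lists were chosen with earlier results of these data known. Named are every member, up to 6 kept probe sets of each of the 3 pathway lists by smallest p, and the 5 patterns nearest to chs1, where clone names such as GRMZM numbers did not count as informative. The tissue genes to name were picked with their values in view. Alternatives changed 1 choice at a time, except that eBayes' trend and robust options were turned on together. The number of arrays limits the precision.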

Additional observations from a re-analysis of the deposited data

How the results depend on the processing

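The call of chs1/minE held under all 12 alternatives (difference 1.65 to 1.85, adjusted p 0.000824 to 0.00984). The difference of a2 ran from 0.72 to 1.86 under the 12. Its direction could not reverse when an array was left out, because both F98902 values lie above both Cm484 values. Changes of the filter, the eBayes options and the block left the estimate itself as it was. The constant direction is therefore no support for a2. Of all probe sets kept, 34.9% were called. The count of members called was 1 of the 2 kept, and 2 without probe sets of shared sequence. With each array left out in turn it ran from 1 to 2, being 2 without F98902 replicate 2. For regulators the count called was 1 of the 2 kept, and 0 with no filter. With each array left out it ran from 0 to 1, being 0 without F98902 replicate 2 and without either Cm484 array. myb31 kept its direction under all 12 and its call under 8, with adjusted p from 0.0266 to 0.137. The other 2 lists had 0 calls throughout. The count over all probe sets was 3533, and with each array left out ran from 2205 (without Cm484 replicate 1) to 2706. It was 2339 without F98902 replicate 2. Both lines have a sample 1 and a sample 2, and nothing says that a number marks a shared batch, and the deviations of the like-numbered samples from their line means correlated at -0.02 over the probe sets kept. With the replicate number as a block, 2983 probe sets were called, chs1/minE kept its call (adjusted p = 0.00486) and a2 remained uncalled (adjusted p = 0.0755). fht1 and the undetected regulators have values too close to background to show a difference. With an array left out, the lone sample of its line was assumed to vary like the samples of the other line.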
